A study of Homo sapiens with 24 samples.

Results

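The subunits of the mitochondrial respiratory chain that are encoded in the nucleus were followed by 3′ RNA-seq in MDA-MB-231, a mesenchymal line derived from breast cancer, and in MDA-MB-453, an epithelial one, both labelled estrogen receptor-negative. Members were chosen by gene symbol alone, as symbols of the NDUF, SDH, UQCR, COX and ATP5 subunit families, and names of pseudogenes were left out. The COX symbols taken were those of COX5 to COX8, as the pattern did not match COX4I1 or COX4I2. CYC1 of complex III was not matched either, so that these genes are outside the counts and sums by complex. The rule took 83 of 59609 genes in the count table, with 36 subunits of complex I, 4 of complex II, 9 of complex III, 16 of complex IV and 18 of complex V. Each line, labelled wild-type, was treated for 5 days with the vehicle DMSO, with 500 nM abemaciclib (an inhibitor of the cell-cycle kinases CDK4 and CDK6), with 5 nM fulvestrant (a degrader of the estrogen receptor) or with both drugs at these doses. The 8 groups held 3 libraries each, 24 in all, described as biological replicates. MDA-MB-231 was grown in RPMI-1640 and MDA-MB-453 in DMEM, both with 10% serum, so that differences of line and of medium cannot be told apart.

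The respiratory chain sits in the inner mitochondrial membrane. Complex I takes electrons from NADH and complex II, which is also an enzyme of the tricarboxylic acid cycle, takes them from succinate. Both pass them through ubiquinone to complex III, from which cytochrome c carries them to complex IV and oxygen. The protons pumped on the way drive complex V, the ATP synthase, and a few core subunits of complexes I, III, IV and V are encoded in the mitochondrial genome itself, so that both genomes must supply parts of the same machines.

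Library totals ranged from 2873558 to 4158762 counts. The lines differed in identity markers in the direction of their names: the mesenchymal gene VIM stood at 1367 to 1972 CPM (counts scaled to the library total) in MDA-MB-231 and at 0 in MDA-MB-453, whereas the epithelial gene EPCAM stood at 0 to 1.86 CPM and at 372 to 421 CPM. The leukocyte gene PTPRC did not exceed 0.296 CPM in any library, and the endothelial gene PECAM1 did not exceed 2.4 CPM. The macrophage gene CD68 stood at 1.45 to 16.3 CPM in MDA-MB-231 and at 0 in MDA-MB-453. The collagen gene COL1A1 was at 1.51 to 7.77 CPM in MDA-MB-231 and higher, at 18 to 55.7 CPM, in MDA-MB-453. Levels below are CPM scaled together over all 24 libraries, and changes are log2 fold changes with standard errors (SE) from edgeR's quasi-likelihood test, with p adjusted by Benjamini and Hochberg over every gene of the fit and calls made below 0.05. Of the 83 members, 76 passed the filter on low counts in each line and 75 in both. COX6A2, COX7A1 and COX6B2, isoform genes of complex IV, had 0 counts over the 24 libraries, where a floor of 3 counts over a group corresponds to 0.255 to 0.3 CPM. COX8C had 7 counts and NDUFA4L2 4 counts in all, each in a single library. NDUFV2, a core subunit of the NADH-binding part of complex I, had only 46 counts in all, whereas the row of its pseudogene had 2406. It also shares exon bases with another gene on the same strand. Reads of the gene and of its copy may not be told apart, and what lowers its count was not tested. NDUFA7, with 124 counts, was tested only in MDA-MB-453 and COX7B2, with 1206, only in MDA-MB-231. In the annotation used here (GENCODE 44 on GRCh38), 45 members share exon bases with another gene, and 45 have pseudogene rows in the table, which leaves their counts less certain where reads map to both.

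Some of these genes share a promoter sequence that is known to be bound by NRF1, the transcription factor nuclear respiratory factor 1. RefSeq promoter sequences (GRCh38.p14, from 250 bases before to 50 after the gene start) matched 67 of the 83 members. The letters GCGCATGC, searched on both strands, were found in 13 of these promoters (19.4%), in 5.6% of 9526 promoters of other tested genes and in 3.27% of all 27305 promoters. AAGATGGC, the core of YY1 sites, was in 16.4% of member promoters and in 5.6% of the others, CCGGAAG, an ETS core, in 28.4% and 20.3%, TGACGTCA, the cAMP response element, in 7.46% and 3.38%, GGCGGGAA, an E2F core, in 5.97% and 5.37%, and CCAAT in 34.3% and 37.5%. The stretches of 30 bases around the GCGCATGC match (in capitals, read as GCATGCGC where it lies on the opposite strand) are shown 5′ to 3′ on the strand of each gene for 6 members, because these members responded in different ways to abemaciclib although they share the letters. The first 3 rose in MDA-MB-231 and fell in MDA-MB-453, the next 2 fell in both lines, and SDHB fell in MDA-MB-231 without a call in the other line.
ATP5ME, chr4:674336-674365, minus strand: cgccgctgacgGCGCATGCgtgcgcccagc
COX5B, chr2:97645915-97645944, plus strand: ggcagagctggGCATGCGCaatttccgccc
COX6A1, chr12:120437928-120437957, plus strand: ggaggtgcagaGCGCATGCtctctcttgcc
NDUFA6, chr22:42090920-42090949, minus strand: tctgtagatgaGCATGCGCagcacccaccg
NDUFS6, chr5:1801350-1801379, plus strand: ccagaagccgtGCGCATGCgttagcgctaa
SDHB, chr1:17054214-17054243, minus strand: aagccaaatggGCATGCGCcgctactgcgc
The match begins 78, 136, 174, 166, 46 and 200 bases before the gene start, in this order.

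The comparison of abemaciclib with DMSO asked how respiratory chain transcripts stood after 5 days of CDK4/6 inhibition. In MDA-MB-231, 31 of 76 tested members rose and 7 fell, against 16.9% of all tested genes that rose and 16.9% that fell. The median change of the members was 0.18, that of all genes 0.00. By complex, 8 of 11 subunits of complex IV rose and none fell (median 0.43), as did 4 subunits of complex III (median 0.20). In complex V, 9 rose and 1 fell (median 0.26), in complex I 10 rose and 5 fell (median 0.07), and in complex II none rose and 1 fell (median -0.21). Because counts are relative to each library's total, changes in the amount of RNA per cell or in the number of cells cannot be seen in these values.

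In MDA-MB-453 the same treatment had 40 of 76 tested members lower and 2 higher, against 19.4% of all tested genes that fell and 16.6% that rose. The median change of the members was -0.32, that of all genes 0.00. Lower members were found in complex I (18 of 35, median -0.32), complex III (4, median -0.27), complex IV (6 of 10, median -0.28) and complex V (12, median -0.33), but in complex II none fell and 1 rose (median -0.30). The 2 that rose were SDHC and NDUFS1. Within complex I, the catalytic core subunits had 1 member higher and 3 lower of 6, and the accessory subunits, which surround the core and do not carry electrons, had 15 lower of 29 and none higher. In complex V, 3 of 5 subunits of the catalytic F1 head and 9 of 13 other subunits fell.

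**Figure D1:**
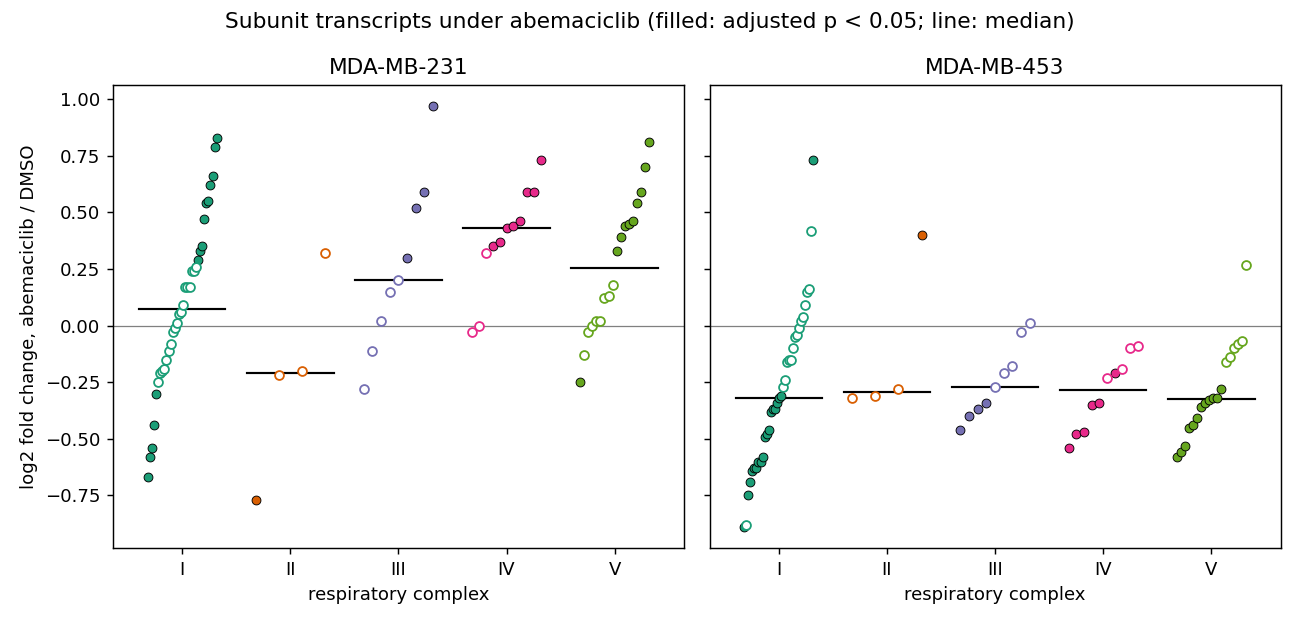
Log2 fold change of abemaciclib over DMSO (vertical axis) for each tested respiratory chain subunit, arranged by complex along the horizontal axis and shown separately for MDA-MB-231 and MDA-MB-453; each point is a gene, filled points have an adjusted p below 0.05, and black lines are medians. In MDA-MB-231, 31 members were called higher and 7 lower, and in MDA-MB-453 2 were called higher and 40 lower.

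Levels were also summed over the members of each complex. Complex IV transcripts in MDA-MB-231 summed to 2324 ± 34 CPM (SD, n = 3) under DMSO and to 2996 ± 208 CPM with abemaciclib, and to 3858 ± 108 and 3232 ± 167 CPM in MDA-MB-453. The libraries of the 2 treatments did not overlap in either line, the abemaciclib libraries being the higher ones in MDA-MB-231 and the lower ones in MDA-MB-453. Complex V summed to 5408 ± 63.4 and 6392 ± 307 CPM in MDA-MB-231, and to 8021 ± 147 and 6532 ± 309.8 CPM in MDA-MB-453. Complex III went from 2137 ± 71.2 to 2842 ± 143 CPM in MDA-MB-231 and from 3215 ± 17.8 to 2816 ± 182 CPM in MDA-MB-453. For complex I the MDA-MB-231 sums were 4627 ± 14 CPM under DMSO and 4869 ± 289 CPM under abemaciclib, and here the libraries overlapped, because abemaciclib replicate 3 lay below all DMSO libraries. In MDA-MB-453 complex I went from 7244 ± 110.3 to 5768 ± 259 CPM without overlap. Complex II was at 189 ± 2.52 and 162 ± 11.2 CPM in MDA-MB-231 and at 297 ± 10.6 and 319 ± 25.7 CPM in MDA-MB-453. These sums were not tested, and they weigh members by their abundance. The complex IV sums leave out COX4I1. Its DMSO and abemaciclib means were 697 and 821 CPM in MDA-MB-231, and 617 and 528 CPM in MDA-MB-453.

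**Figure D2:**
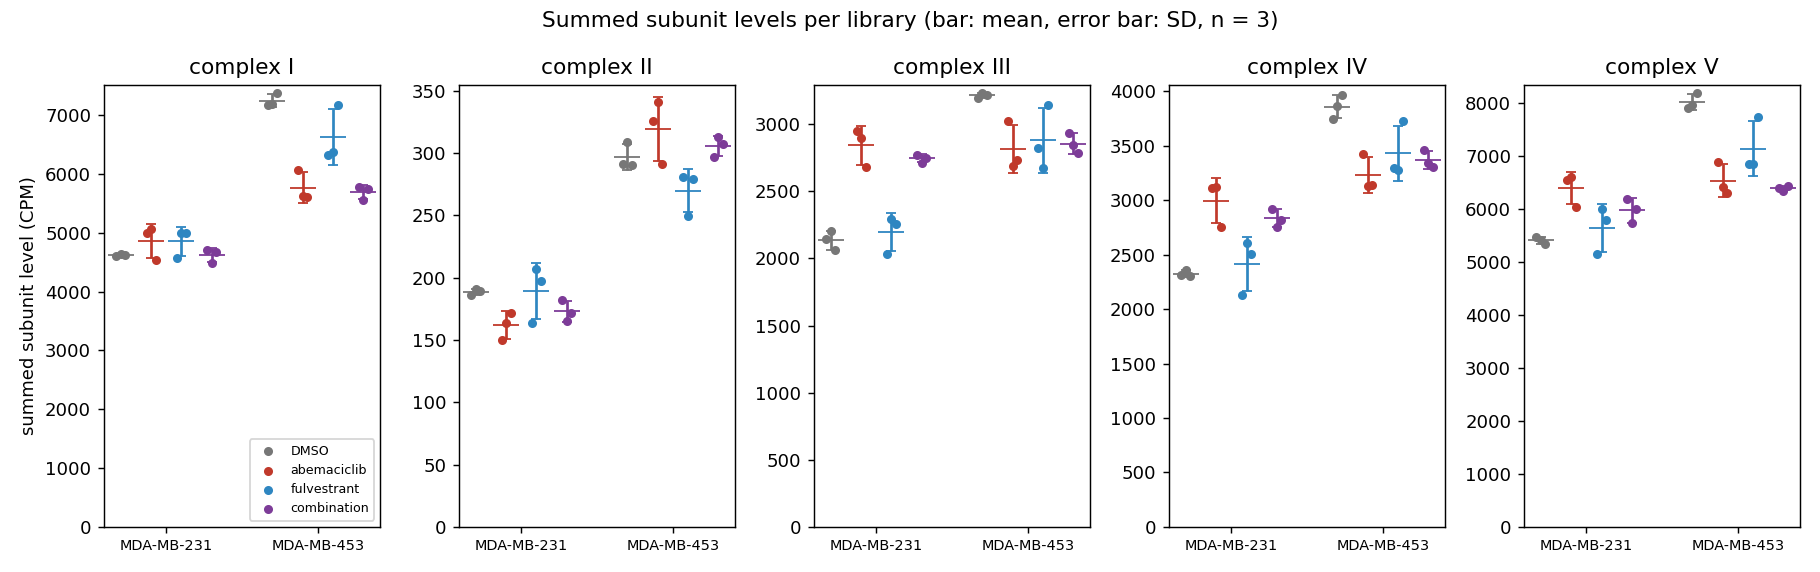
Summed level of the subunits of each complex in every library (points; CPM on the vertical axis) by treatment and line, with bars at the group means and error bars of 1 SD (n = 3). The complex V sums of the abemaciclib libraries lie above those of the DMSO libraries in MDA-MB-231 (means 6392 and 5408 CPM) and below them in MDA-MB-453 (means 6532 and 8021 CPM).

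The largest rise among members in MDA-MB-231 was that of UQCR11, a small accessory subunit of complex III (chr19:1597169-1605473). Its DMSO libraries were at 218, 216 and 194 CPM and its abemaciclib libraries at 434, 416 and 375 CPM, without overlap (log2 fold change 0.97, SE 0.10, adjusted p = 6.4e-11). In MDA-MB-453 the DMSO libraries stood at 362, 402 and 379 CPM and the abemaciclib libraries at 413, 331 and 383 CPM, so that the groups overlapped (-0.03, SE 0.09, adjusted p = 0.858). Among the other complex III genes, UQCRB and UQCRQ, both small structural subunits, rose in MDA-MB-231 by 0.52 and 0.59 on the log2 scale (SE 0.08 and 0.09; adjusted p = 2.1e-06 and 2.4e-06). UQCRC2, a core protein, also rose in MDA-MB-231 (0.30, SE 0.11, adjusted p = 0.0342) and was at -0.21 in MDA-MB-453 (adjusted p = 0.0793). UQCRC1, the other core protein, changed by -0.11 in MDA-MB-231 and fell in MDA-MB-453 (-0.40, adjusted p = 0.00066). UQCRH, the hinge protein next to cytochrome c1, was at 551, 537 and 542 CPM under DMSO in MDA-MB-453 and at 422, 381 and 387 CPM under abemaciclib (-0.46, adjusted p = 1.1e-05), and its value in MDA-MB-231 was 0.20 (adjusted p = 0.0965). Its near-identical copy UQCRHL was not called in either line (0.15 and -0.27), and reads may be shared between the pair. UQCRFS1, the Rieske iron-sulfur protein, was at -0.28 in MDA-MB-231 (adjusted p = 0.0626) and at -0.37 in MDA-MB-453 (adjusted p = 0.0337). Neither value held its side of the threshold over all alternatives: in MDA-MB-231 the gene was called without abemaciclib replicate 1 (adjusted p = 0.0459), and in MDA-MB-453 it was lost with DESeq2 and without DMSO replicate 1 or 2 or abemaciclib replicate 2 or 3 (adjusted p up to 0.248).

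Several accessory subunits of complex I rose in MDA-MB-231. NDUFB2, of the membrane arm, went from 80.6, 96.2 and 78.6 CPM to 154, 164 and 137 CPM (0.83, SE 0.12, adjusted p = 5.6e-07), and its value in MDA-MB-453 was -0.10 (adjusted p = 0.486). NDUFB1, of the same arm (chr14:92116122-92121917), was at 143, 136 and 149 CPM under DMSO and at 232, 255 and 249.7 CPM under abemaciclib (0.79, SE 0.11, adjusted p = 1.1e-07). In MDA-MB-453 it took the opposite course, from 476, 459.9 and 461 CPM to 385, 343 and 355 CPM (-0.37, SE 0.08, adjusted p = 0.00039). The abemaciclib groups therefore lay wholly above DMSO in the first line and wholly below it in the other.

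The largest called falls in complex I in MDA-MB-453 were those of NDUFB8, NDUFB9 and NDUFB10, of the membrane arm. Of the 11 NDUFB subunits 8 fell (median -0.37), against 2 higher and none lower in MDA-MB-231 (median 0.17). Falls were not particular to this family, as 15 of all 29 accessory subunits fell in MDA-MB-453 (median -0.32). Among the others, NDUFS5 was at -0.60 (adjusted p = 7.4e-07) and NDUFA12 at -0.63 (adjusted p = 0.00034). NDUFB8 (chr10:100523740-100530000) stood at 145, 131 and 151 CPM under DMSO in MDA-MB-453 and at 94, 62.5 and 73.2 CPM under abemaciclib (-0.89, SE 0.13, adjusted p = 2e-07). In MDA-MB-231 the values were 233, 255 and 223 CPM and 275, 280.1 and 245 CPM, with overlapping groups (0.17, SE 0.10, adjusted p = 0.209). NDUFB8 overlaps HIF1AN on the other strand, and whether reads were counted by strand is not stated in the sources used here. NDUFB9 went from 445, 443 and 463 CPM to 279, 267 and 260 CPM in MDA-MB-453 (-0.75, SE 0.09, adjusted p = 9.8e-10), with -0.25 (adjusted p = 0.0915) in MDA-MB-231. NDUFB10 fell likewise in MDA-MB-453 (-0.69, SE 0.09, adjusted p = 2.9e-08).

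The electron-carrying core of complex I had genes on both sides. Of its 6 tested genes, 1 rose and 1 fell in MDA-MB-231, against 1 and 3 for MDA-MB-453. NDUFS3 was lower in each line, with -0.30 (adjusted p = 0.0177) for the first and -0.60 (adjusted p = 1.5e-06) for the second. NDUFS8 fell only in the second line (-0.63, SE 0.09, adjusted p = 3.1e-07), with 0.17 (adjusted p = 0.247) in the first. NDUFS1, the largest core subunit and a carrier of iron-sulfur clusters (chr2:206114817-206159509), was at 73.7, 66.1 and 81.8 CPM under DMSO and at 118, 126 and 124 CPM under abemaciclib in MDA-MB-453 (0.73, SE 0.12, adjusted p = 3.6e-06). It had the opposite direction to the 18 lower subunits of its complex, and its MDA-MB-231 value was 0.26 (adjusted p = 0.177). NDUFV1, which binds NADH, rose in MDA-MB-231 (0.35, SE 0.11, adjusted p = 0.0136), a call lost without DMSO replicate 3 or abemaciclib replicate 2 (adjusted p up to 0.0665), and was at 0.09 in MDA-MB-453.

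NDUFV3, an accessory subunit of the matrix arm of complex I, was in MDA-MB-231 at 169, 166 and 182 CPM under DMSO and at 98.6, 115 and 109 CPM under abemaciclib (-0.67, SE 0.11, adjusted p = 2.8e-06). In MDA-MB-453 the libraries overlapped, at 67.8, 59.4 and 72.8 CPM and at 61.7, 65.8 and 66.5 CPM (-0.05, adjusted p = 0.819). NDUFS6, whose promoter stretch is shown above, fell by about the same amount in both lines: from 454 ± 12.9 to 303 ± 26.6 CPM (SD, n = 3) in MDA-MB-231 (-0.58, SE 0.09, adjusted p = 3e-06), and from 379.7, 337 and 397 CPM to 258, 248 and 242 CPM in MDA-MB-453 (-0.58, SE 0.09, adjusted p = 6e-07). NDUFA6, likewise with the shared letters, fell in MDA-MB-231 (-0.54, SE 0.11, adjusted p = 0.00012) and in MDA-MB-453 (-0.64, SE 0.09, adjusted p = 3.9e-08).

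The 4 subunits of complex II did not move as a block. SDHB, its iron-sulfur subunit (chr1:17018664-17054032), was in MDA-MB-231 at 64.6, 70.8 and 65.7 CPM under DMSO and at 39, 39.8 and 38.6 CPM with abemaciclib (-0.77, SE 0.15, adjusted p = 0.0001). In MDA-MB-453 the libraries were at 61.6, 61.3 and 61 CPM and at 60.1, 52 and 38.8 CPM, all abemaciclib libraries below DMSO but widely spread (-0.28, SE 0.15, adjusted p = 0.144). Without abemaciclib replicate 1 of that line SDHB was called lower there too (-0.43, adjusted p = 0.042). The difference between the lines was not called for this gene (0.50, SE 0.22, adjusted p = 0.108). SDHC, a membrane anchor, rose in MDA-MB-453 from 158, 157 and 143 CPM to 197, 222 and 189 CPM (0.40, SE 0.10, adjusted p = 0.00084). In MDA-MB-231 it was at 44.6, 51 and 44.2 CPM and at 52.9, 65.3 and 56.4 CPM (0.32, SE 0.16, adjusted p = 0.123), again without overlap. SDHA, the flavoprotein, was not called in either line (-0.22 and -0.32; adjusted p = 0.246 and 0.0724), nor was SDHD, the other anchor (-0.20 and -0.31). Without the same library SDHA was called lower in MDA-MB-453 (-0.40, adjusted p = 0.0483), and SDHD in MDA-MB-231 ranged from -0.77 to 0.11 over the alternatives, never called, and was above 0 without DMSO replicate 1 or abemaciclib replicate 2.

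In complex IV, COX6C of MDA-MB-231 was at 232, 228 and 203 CPM under DMSO and at 393, 354 and 352 CPM with abemaciclib (0.73, SE 0.10, adjusted p = 2.5e-07), and at -0.10 in MDA-MB-453 (adjusted p = 0.355). It is a small accessory subunit with 17 pseudogene rows in the table. COX5B, which binds zinc on the matrix side, rose in MDA-MB-231 from 154, 174 and 169.6 CPM to 219.6, 218 and 206 CPM (0.37, SE 0.10, adjusted p = 0.00458) and fell in MDA-MB-453 from 348, 346 and 361 CPM to 239.6, 265 and 262 CPM (-0.47, SE 0.09, adjusted p = 3.8e-05). COX6A1, the widely expressed isoform of its subunit, gave 0.59 (adjusted p = 4.7e-05) and -0.35 (adjusted p = 0.00564), the second lost without MDA-MB-453 DMSO replicate 3 (adjusted p = 0.0856). COX6B1, on the side of cytochrome c, gave 0.46 (adjusted p = 0.00014) and -0.21 (adjusted p = 0.0427), the second lost under 10 alternatives, among them each DMSO library and abemaciclib replicate 2 or 3 left out (adjusted p up to 0.167). COX7A2 rose in MDA-MB-231 (0.35, adjusted p = 0.00637), a call lost without abemaciclib replicate 1 (adjusted p = 0.0611), and was at -0.19 in MDA-MB-453 (adjusted p = 0.0848). NDUFA4, now known as a subunit of complex IV and counted there in spite of its symbol, rose in MDA-MB-231 (0.43, adjusted p = 0.00211) and was at -0.09 in MDA-MB-453. COX5A fell in MDA-MB-453 from 97.7, 109 and 125 CPM to 89.2, 72.1 and 67.5 CPM (-0.54, SE 0.13, adjusted p = 0.00072).

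In the ATP synthase of MDA-MB-231 the member with the largest rise was ATP5MD, a small subunit of the membrane part, which was at 209.7 ± 22.7 CPM (SD, n = 3) under DMSO and at 368, 390.5 and 341 CPM under abemaciclib, all above the DMSO libraries (0.81, SE 0.10, adjusted p = 4.5e-08), with -0.07 (adjusted p = 0.59) in MDA-MB-453. ATP5ME, subunit e, which helps hold ATP synthase dimers together (chr4:672436-674330), went from 132, 135 and 142 CPM to 226, 240.1 and 199 CPM (0.70, SE 0.10, adjusted p = 7.4e-07). In MDA-MB-453 it went from 459, 431 and 446 CPM to 350.2, 323 and 311 CPM (-0.45, SE 0.09, adjusted p = 4.9e-05). ATP5PO, which joins the outer stalk to the head, followed the same pattern, with 0.46 (adjusted p = 0.0004) in MDA-MB-231 and -0.58 (SE 0.09, adjusted p = 1.4e-06) in MDA-MB-453.

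Genes of the rotor ring and of the catalytic head differed among themselves. ATP5MC1, ATP5MC2 and ATP5MC3 encode the same mature ring subunit with different import sequences. ATP5MC1 rose in MDA-MB-231 and fell in MDA-MB-453 (0.45 and -0.53; adjusted p = 0.00024 and 0.00014), ATP5MC2 was called in neither (0.00 and -0.16), and ATP5MC3 fell in MDA-MB-453 (-0.56, SE 0.08, adjusted p = 5.8e-08) with 0.02 in MDA-MB-231. ATP5F1B, the catalytic beta subunit, was lower in both lines, from 609, 566 and 589 CPM to 498, 497 and 487 CPM in MDA-MB-231 (-0.25, SE 0.09, adjusted p = 0.0231) and from 679, 692 and 712 CPM to 588, 542 and 545 CPM in MDA-MB-453 (-0.32, adjusted p = 0.00092). Its MDA-MB-231 call was lost with loess offsets, without the filter on low counts and without DMSO replicate 1 or 3 or abemaciclib replicate 1 or 3 (adjusted p up to 0.152). ATP5F1A, the alpha subunit, was at 0.18 in MDA-MB-231 (adjusted p = 0.175) and fell in MDA-MB-453 (-0.41, adjusted p = 0.00015).

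**Figure D3:**
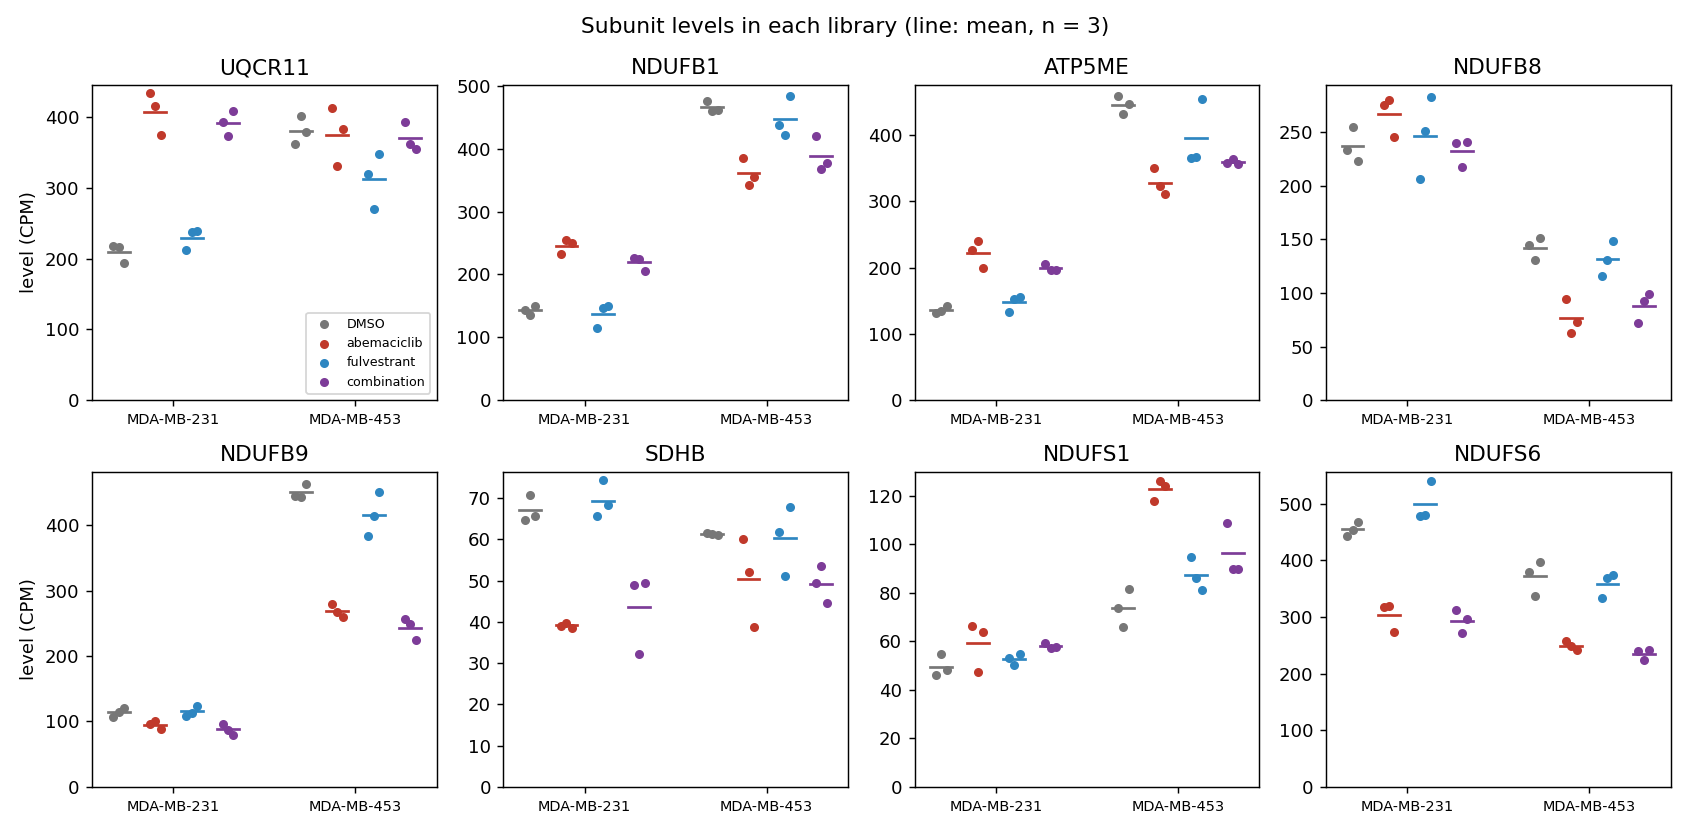
Level in every library (points; CPM, each panel with its own vertical axis) of 8 subunits by treatment and line, with bars at the group means. UQCR11 rises from 218, 216 and 194 CPM under DMSO to 434, 416 and 375 CPM with abemaciclib (MDA-MB-231), and NDUFB8 falls from 145, 131 and 151 CPM to 94, 62.5 and 73.2 CPM in MDA-MB-453.

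Whether the effect of abemaciclib differed between the lines was tested in a model over all 24 libraries, with the effect of MDA-MB-231 subtracted from that of MDA-MB-453. Of 77 members, 41 had a lower effect in MDA-MB-453 and 1 a higher effect, against 13.0% of all tested genes that were lower and 7.72% that were higher. The median difference was -0.48 over the members and -0.07 over all genes, and stayed at -0.48 over the 76 members without COX7B2, which was near 0 in MDA-MB-453. Over all 513 genes with a canonical transcript under 700 bases the median was -0.39, with 136 lower and 28 higher, and it was -0.54 over the 36 members that short and -0.34 over the 41 longer ones. Complex IV had 10 of 11 lower, complex V 12, complex III 5, and complex I 14 with 1 higher, and complex II had none in either direction. The differences that were largest in size were those of NDUFB1 (-1.15, SE 0.13, adjusted p = 3.1e-09), ATP5ME (-1.14, SE 0.13, adjusted p = 4.1e-09), NDUFB8 (-1.06, SE 0.18, adjusted p = 7.3e-06), ATP5PO (-1.03, SE 0.14, adjusted p = 1.7e-07) and UQCR11 (-0.98, SE 0.14, adjusted p = 1.6e-07). The member with a higher effect in MDA-MB-453 was NDUFV3 (0.63, SE 0.16, adjusted p = 0.00306).

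Of the 31 members that rose in MDA-MB-231 and the 40 that fell in MDA-MB-453, 12 were in both lists (16.0% of the 75 members tested in both lines, against 2.02% of all 9691 genes so tested), and the difference was called for all 12. They were NDUFB1 and NDUFS5 of complex I, COX5B, COX6A1, COX6B1 and COX7C of complex IV, and ATP5F1D, ATP5MC1, ATP5ME, ATP5MF, ATP5MG and ATP5PO of complex V. Another 19 rose in MDA-MB-231 and were not called in MDA-MB-453, with the difference called for 16 (25.3% of members, 8.76% of all genes), and 23 fell in MDA-MB-453 and were not called in MDA-MB-231, with the difference called for 13 (30.7% and 10.1%). Lower in both lines were 5 members (ATP5F1B, NDUFA6, NDUFC1, NDUFS3 and NDUFS6), none of them with a called difference (6.67% and 8.49%), and no member was called higher in both, as 4.88% of all genes were. Members with GCGCATGC in the promoter had 3 higher and 3 lower of 13 in MDA-MB-231 (median -0.08), and those with a promoter without it 22 higher and 3 lower of 48 (median 0.25). In MDA-MB-453 the medians were -0.32 and -0.32, with 8 of 13 and 25 of 48 lower. The YY1 letters gave a like split in MDA-MB-231, with medians of -0.12 with them and 0.24 without. For the ETS, cAMP response element, E2F and CCAAT letters the median there was higher with the letters (0.37, 0.47, 0.22 and 0.30) than without (0.13, 0.17, 0.17 and 0.17). Only 5 members had the cAMP response element and 4 the E2F letters. These motif counts are descriptions without a test.

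**Figure D4:**
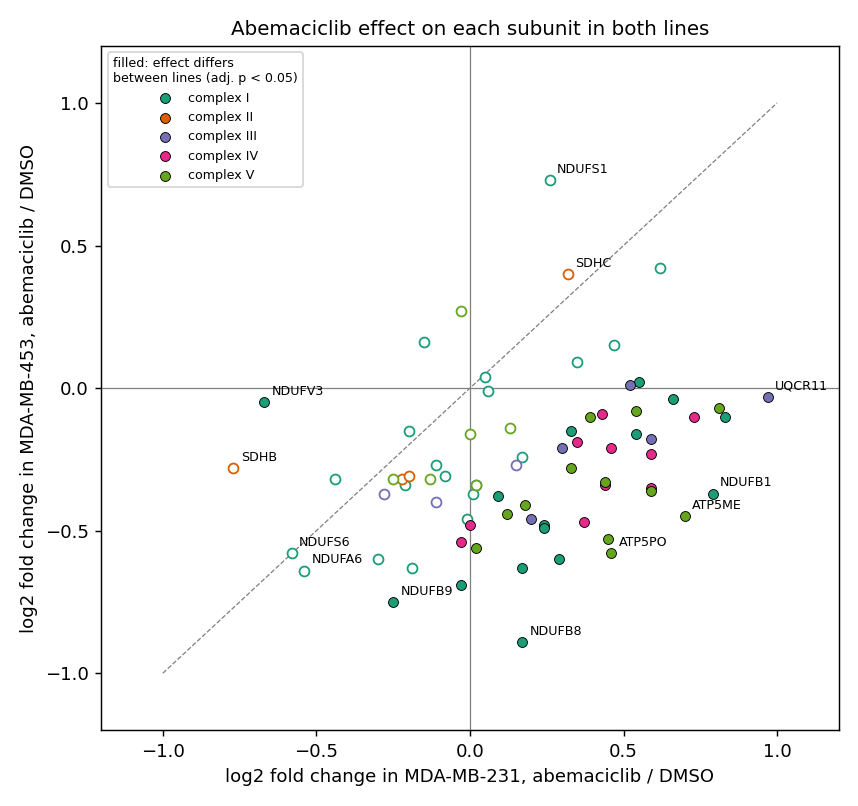
Log2 fold change of abemaciclib over DMSO in MDA-MB-231 (horizontal axis) and MDA-MB-453 (vertical axis) for the 75 subunits tested in both lines; each point is a gene, colours mark the complex, filled points have an effect called different between the lines, and the dashed line marks equal effects. Most filled points lie below the dashed line, with NDUFB1 at 0.79 and -0.37 and ATP5ME at 0.70 and -0.45, and NDUFV3 is the filled point above it.

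Many of the subunits have short transcripts, so the members were also split by length. With a canonical transcript under 700 bases, 17 of 35 members rose in MDA-MB-231 and 2 fell (median 0.29), and among the 41 longer ones 14 rose and 5 fell (median 0.09). Among all 428 short genes tested in that line, 105 rose and 62 fell (median 0.08). In MDA-MB-453, 22 short members fell (median -0.35) and 18 of the longer ones (median -0.28), and of all 421 short genes 146 fell and 50 rose (median -0.22). Short genes as a whole thus leaned the way of the members in each line, and the part of transcript length in the results was not tested.

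Fulvestrant alone was compared with DMSO in the same way. In MDA-MB-231 none of the 76 members was called by edgeR or by DESeq2, where the share of all genes called was 0% (median of the members 0.06). At an unadjusted p below 0.05 were 3 of the 76 members and 799 of all 11314 genes. In MDA-MB-453 edgeR called 1 member, lower under fulvestrant, against 1.41% of all genes called. At an unadjusted p below 0.05 were 16 of 76 members and 1504 of all 11080 genes. DESeq2 called 6 members, all lower, among them ATP5F1B, ATP5MG, ATP5PB, NDUFB5 and UQCRH. The median over the members was -0.13. The 3 fulvestrant libraries of this line did not stand together, with complex I sums of 6328, 6379 and 7175 CPM beside 7171 to 7371 CPM under DMSO, and without replicate 3, the highest, 11 members were called. No member was called without any 1 of the DMSO libraries or without fulvestrant replicate 1 or 2.

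The combination of both drugs was compared with the same DMSO libraries as abemaciclib alone, so that the values of the treatments are not independent. In MDA-MB-231, 27 of 76 members were higher and 13 lower than under DMSO, against 17.0% and 18.3% of all genes, with a median of 0.10. Loess offsets, which remove trends with abundance, gave 36 higher and 8 lower instead. Complex IV had 7 higher and none lower (median 0.39), complex V 8 and 1 (median 0.18), complex III 3 and none (median 0.08), and complex I 8 and 11 (median -0.04). In complex II, SDHB fell (-0.62, SE 0.15, adjusted p = 0.00106) and SDHC rose (0.42, SE 0.16, adjusted p = 0.0359). UQCR11 stood at 394, 374 and 409 CPM under the combination (0.91, SE 0.10, adjusted p = 2.3e-10), NDUFB2 at 144, 141 and 165 CPM (0.82, SE 0.12, adjusted p = 6e-07) and COX6C at 402, 326 and 352 CPM (0.71, SE 0.10, adjusted p = 4.3e-07).

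In MDA-MB-453 the combination had 42 members lower and 3 higher than DMSO, against 20.0% and 17.6% of all genes (median -0.29), and 34 and 8 with loess offsets. Complex I had 22 lower and 2 higher (median -0.43), complex V 10 lower (median -0.26), complex IV 6 lower (median -0.25) and complex III 3 lower (median -0.25). NDUFB9 was at 257, 249 and 224 CPM (-0.88, SE 0.09, adjusted p = 1.6e-11), NDUFB10 fell by 0.73 and NDUFB7 by 0.74 on the log2 scale (adjusted p = 7.6e-09 and 3.1e-05), all 3 of the membrane arm. SDHA, not called under abemaciclib alone, fell (-0.47, adjusted p = 0.0071), whereas SDHC rose (0.36, SE 0.10, adjusted p = 0.0025).

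The combination was also set directly against abemaciclib alone. In MDA-MB-231 none of the 76 members was called by edgeR or by DESeq2, where 0.0265% of all genes were called (median of the members -0.09). At an unadjusted p below 0.05 were 9 of the 76 members and 1148 of all 11314 genes. In MDA-MB-453, where 2.46% of all genes were called, NDUFA13, an accessory subunit also known as GRIM-19, was lower, at 33.1, 55.9 and 40.8 CPM under abemaciclib and at 23.1, 23.1 and 32.1 CPM under the combination (-0.70, SE 0.20, adjusted p = 0.0427). The groups were separated, but the abemaciclib libraries were widely spread, and the call was lost without abemaciclib replicate 2 or 3 or combination replicate 1 or 2. With loess offsets NDUFA13 was not called and UQCRC2 was called higher. DESeq2 called ATP5PD, NDUFA13 and NDUFV3 lower. By edgeR, 12 of 76 members were at an unadjusted p below 0.05, and 1666 of all 11080 genes.

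The interaction (how far the combination lay from adding up the single drugs on the log2 scale) was called for none of the 76 members in MDA-MB-231 by edgeR or by DESeq2, with 0.124% of all genes called. At an unadjusted p below 0.05 were 9 of the 76 members and 1298 of all 11314 genes. In MDA-MB-453, 3 members were called above 0 and 1 below, where 3.80% of all genes were called. At an unadjusted p below 0.05 were 17 of 76 members and 1748 of all 11080 genes. UQCRC2 (0.46, SE 0.13, adjusted p = 0.0404) and NDUFA4 (0.42, SE 0.12, adjusted p = 0.0432) were among those above 0, and NDUFS1 (-0.59, SE 0.17, adjusted p = 0.0379) lay below. Loess offsets gave 6 above 0 and none below. The interaction calls changed with single libraries, with 13 called without fulvestrant replicate 3, 10 without abemaciclib replicate 1, and none without abemaciclib replicate 2 or 3 or fulvestrant replicate 1 or 2.

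Under DMSO the lines already differed. Of 77 members, 55 were higher in MDA-MB-453 than in MDA-MB-231 and 12 lower, against 34.3% and 35.6% of all tested genes, with a median difference of 0.67 over the members and -0.03 over all genes. All 4 complexes that pump or use protons leaned to MDA-MB-453, with 26 higher and 6 lower in complex I (median 0.71), 8 and none in complex III (0.72), 9 and 2 in complex IV (0.91) and 11 and 4 in complex V (0.42). ATP5PD, a subunit of the outer stalk, was at 183, 185 and 193 CPM in MDA-MB-231 and at 934, 902 and 972 CPM in MDA-MB-453 (2.32, SE 0.08, adjusted p = 9.7e-29), and NDUFB9 at 107, 115 and 120.4 CPM and at 445, 443 and 463 CPM (1.98, SE 0.10, adjusted p = 2.7e-23). COX7B2, a form of its subunit best known from testis, was at 26.2, 23.3 and 28 CPM in MDA-MB-231, and no count was found in the MDA-MB-453 DMSO libraries, so that it was at least 89.8-fold higher in MDA-MB-231 (floor of 3 counts, taken over that group). Against the trend of their complexes, NDUFV3 (-1.37, SE 0.11, adjusted p = 5.7e-15), COX5A (-1.17, SE 0.12, adjusted p = 4.8e-12) and ATP5MC1 (-0.90, SE 0.11, adjusted p = 2.4e-10) were higher in MDA-MB-231.

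In MDA-MB-231 the members' share of all counts was 1.5 ± 0.01% (SD, n = 3) under DMSO and 1.77 ± 0.0872% with abemaciclib, and 2.21 ± 0.01% and 1.72 ± 0.131% in MDA-MB-453. The 13 protein-coding genes of the mitochondrial genome, which supply the other subunits of the same complexes, took 6.53 ± 0.28% and 8.96 ± 0.745% of counts in MDA-MB-231, and 10.2 ± 0.442% and 13.9 ± 0.473% in MDA-MB-453. Under abemaciclib both shares were thus higher in MDA-MB-231, whereas the nuclear share was lower and the mitochondrial share higher in MDA-MB-453, without overlap of libraries. Both are shares of the same total, so that a larger mitochondrial share by itself makes the nuclear share smaller. All mitochondrial-genome genes together took 15.2 ± 0.666% and 23.8 ± 1.88% of counts in MDA-MB-453. How much of the lower nuclear share goes with this was not tested. With mitochondrial genes left out of the counts, 42 members were called under abemaciclib in MDA-MB-453, 2 higher and 40 lower. These calls rest on scaled levels, so they do not answer how the 2 shares of counts go together. By the test, 7 of the 13 rose and 1 fell in MDA-MB-231 (median 0.21), against 16.9% of all tested genes in each direction. In MDA-MB-453, 12 rose and none fell (median 0.59), against 16.6% of all tested genes that rose and 19.4% that fell. MT-CO2, a core subunit of complex IV, rose in MDA-MB-231 from a mean of 4822 to 10481 CPM (1.12), whereas MT-ND6, encoded on the other strand from the remaining 12, fell from 149 to 40.6 CPM (-1.87). MT-ATP8 of complex V rose in MDA-MB-453 from 1524 ± 77.9 to 3559 ± 1295 CPM (SD, n = 3; 1.22), with widely spread abemaciclib libraries. Over the alternatives its change ran from 0.91 to 1.45. The gene was at 2279 ± 135 CPM under the combination and at 2337 ± 955 CPM under fulvestrant in that line. Under fulvestrant in MDA-MB-453, 9 of the 13 fell and 1 rose (median -0.29), against 1.41% of all genes called in either direction. Under the combination 8 rose and 1 fell in MDA-MB-231, against 17.0% and 18.3% of all genes. In MDA-MB-453 the combination had 11 higher, against 17.6% of all genes.

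**Figure D5:**
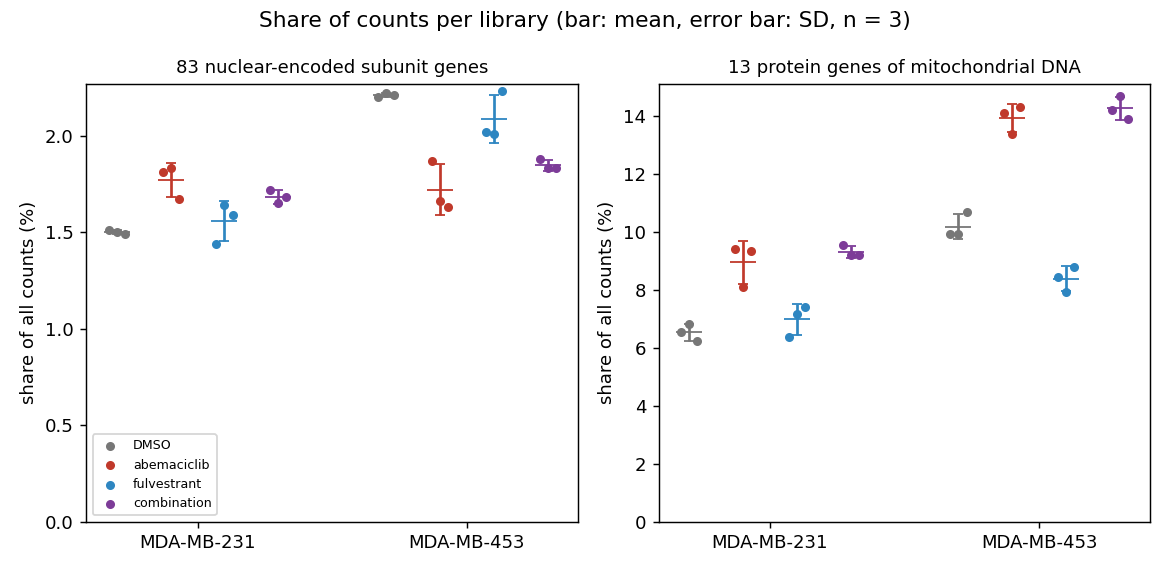
Share of all counts (percent, vertical axis) taken in each library by the nuclear-encoded subunits and by the 13 protein-coding mitochondrial genes, by treatment and line, with bars at the group means and error bars of 1 SD (n = 3). Under abemaciclib in MDA-MB-453 the nuclear share is at 1.72% against 2.21% under DMSO, and the mitochondrial share at 13.9% against 10.2%. Both are shares of the same total.

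Genes that act with the subunits were counted from lists of known function, to be read against all genes tested, of which 16.9% rose and 16.9% fell in MDA-MB-231, while 16.6% rose and 19.4% fell in MDA-MB-453. Of 7 tested respiratory chain genes whose names the rule did not take, 3 rose and 3 fell in MDA-MB-231 (median 0.05) and 3 fell in MDA-MB-453 (median -0.13). CYCS, which encodes cytochrome c, fell in MDA-MB-231 from 398 ± 21.6 to 205 ± 11.1 CPM (SD, n = 3; -0.95, SE 0.10, adjusted p = 2.5e-10), and ATP5IF1, the inhibitor protein of the ATP synthase, rose from 126 to 210 CPM (0.73, adjusted p = 1.3e-06). CYC1, cytochrome c1 of complex III, fell in MDA-MB-453 from 223 to 149.8 CPM (-0.58, adjusted p = 9.4e-06). Its mean was lower with abemaciclib in MDA-MB-231 too, at 224 ± 15.6 and 158 ± 18.9 CPM. Of 52 assembly factors, 9 rose and 9 fell in MDA-MB-231 (median 0.00), near those shares, and 5 rose and 15 fell in MDA-MB-453 (median -0.20). In MDA-MB-453, LYRM7, which serves the insertion of the Rieske protein, rose (1.08) and FOXRED1, an assembly factor of complex I, fell from 22.3 to 7.67 CPM (-1.53). In MDA-MB-231, SDHAF4, an assembly factor of complex II, rose from 9.35 to 18.6 CPM (0.99, adjusted p = 0.00541), a call lost without DMSO replicate 1 (adjusted p = 0.0549), and NDUFAF1, an assembly factor of complex I, fell from 18.2 to 9.63 CPM (-0.91, adjusted p = 0.00946), a call lost without DMSO replicate 2 or abemaciclib replicate 2 (adjusted p up to 0.082).

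Of 16 tested regulators of respiratory genes and of mitochondrial gene expression, 2 rose and 4 fell in MDA-MB-231 (median -0.23) and 2 rose and 3 fell in MDA-MB-453 (median -0.08). GABPB1, a subunit of the ETS factor GABP, fell in MDA-MB-231 from 33.9 to 11.7 CPM (-1.53), and HIF1A, the oxygen-regulated factor, rose from 84 to 137 CPM (0.71). NRF1 itself fell in MDA-MB-453 from 14.2 to 7.39 CPM (-0.95, SE 0.34, adjusted p = 0.0248), but not without DMSO replicate 1 or abemaciclib replicate 1 (adjusted p up to 0.188), and was at -0.69 in MDA-MB-231 (adjusted p = 0.0593). ESRRA, the estrogen-related receptor alpha and a known activator of respiratory genes, rose in MDA-MB-453 from 42.5 to 68.1 CPM (0.68, adjusted p = 0.00015) and in MDA-MB-231 (0.63, adjusted p = 0.00701). Of 19 enzymes of the tricarboxylic acid cycle, 3 rose and 4 fell in MDA-MB-231 (median -0.06), again near the 16.9% of all genes in each direction, and 1 rose and 7 fell in MDA-MB-453 (median -0.28). FH, fumarase, the enzyme after complex II in the cycle, fell in each line (MDA-MB-231 -1.06, adjusted p = 2e-08; MDA-MB-453 -0.88). IDH2, the mitochondrial NADP-dependent isocitrate dehydrogenase, fell in MDA-MB-453 from 22 to 6.02 CPM (-1.86, adjusted p = 1.8e-06). SUCLG2, of succinyl-CoA ligase, rose in MDA-MB-231 (0.60, adjusted p = 0.0133), a call lost without DMSO replicate 3 or abemaciclib replicate 3 (adjusted p up to 0.084), and IDH3G, of the NAD-dependent isocitrate dehydrogenase, rose in MDA-MB-453 (0.35, adjusted p = 0.005), a call lost without DMSO replicate 2 (adjusted p = 0.0555).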

How the data were processed

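Libraries were prepared from total RNA with the QuantSeq 3′ FWD kit. According to the methods of the study, reads were trimmed with BBDuk, aligned to hg38 with STAR and counted with featureCounts on GENCODE 35, and the authors deposited raw counts per gene for the 24 libraries, with no normalization. Strand and multi-mapping settings are not given in the sources used here. Counts at the 3′ end do not scale with transcript length, so levels are compared within a gene.

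Counts were filtered with filterByExpr, scaled by TMM and fitted in R 4.3.3 with edgeR 4.0.16 (glmQLFit and glmQLFTest, two-sided, Benjamini-Hochberg adjusted p below 0.05), with 12 libraries for comparisons within a line and 24 between lines. SEs are the absolute log2 fold change over the square root of F. The members, the gene lists and the tests were chosen with earlier results of these data known. The named genes were a fixed set of core subunits and isoform families, the called members with the largest change in each direction per complex under abemaciclib, up to 3 called members in each other comparison, and the leading called genes of each list, all averaging at least 10 CPM outside the fixed set. Other genes were named after their values were seen. NDUFA4 and NDUFA4L2 were put with complex IV. The values of 1 member are not reported here. Alternatives were DESeq2 1.42.0, RLE scaling, loess offsets, no filter on low counts, only the groups compared, counts without mitochondrial genes, each library left out in turn, and a replicate block. Biological coefficients of variation were 13.4% and 12.6%. No pair of libraries differed by as little as sampling noise (chi-square per degree of freedom from 2.64 to 8.65). Depth limits what can be seen at a few CPM, and floors cover counting error only.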

Additional observations from a re-analysis of the deposited data

Results flagged for a closer look

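The effect of abemaciclib differed between MDA-MB-231 and MDA-MB-453 for 42 members, by a test of the difference itself in the model over all 24 libraries. With the effect of MDA-MB-231 subtracted from that of MDA-MB-453, the difference was -1.15 on the log2 scale for NDUFB1 and -1.14 for ATP5ME, 2 genes that were called higher in MDA-MB-231 and lower in MDA-MB-453. It was -1.06 for NDUFB8, which was called lower in MDA-MB-453 and was not called in MDA-MB-231. For NDUFV3, called lower in MDA-MB-231 and not called in MDA-MB-453, it was 0.63. Line and culture medium cannot be told apart in these differences.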

How the results depend on the processing

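The counts of members called under abemaciclib and under the combination, and in both comparisons of the lines, stayed within 1.5 times of the reported counts under every alternative run. With 1 library left out in turn, abemaciclib gave 31 to 36 (MDA-MB-231) and 35 to 47 (MDA-MB-453) calls, the combination 33 to 37 and 38 to 40, the difference between the lines 40 to 48, and the lines under DMSO 62 to 67. Small counts moved more. For fulvestrant in MDA-MB-453 (reported 1), DESeq2 gave 6, RLE scaling 0, loess offsets 0 and a fit of only the groups compared 0, and leaving out 1 library gave 0 to 11. In MDA-MB-231 fulvestrant gave 0 to 1 calls (1 without fulvestrant replicate 1) and the interaction 0 to 3 (3 without fulvestrant replicate 1). For the combination against abemaciclib in MDA-MB-453 (reported 1), DESeq2 gave 3, no filter on low counts 2, and leaving out 1 library 0 to 3. For the interaction in MDA-MB-453 (reported 4), DESeq2 gave 9 and leaving out 1 library 0 to 13. The cause was not tested. With the replicate block the counts were 38 and 39 for abemaciclib and the combination in MDA-MB-231, and 41 and 45 for the same in MDA-MB-453. They were 1 for fulvestrant and 3 for the interaction in MDA-MB-453, and 42 for the difference between the lines. For same-numbered libraries, 36 correlations of their deviations from the group means ran from -0.0774 to 0.0312. These weigh all filtered genes alike, so they cannot exclude an effect that such libraries share in part of the genes. The interaction could not be fitted with only the groups compared. No named gene reversed its direction where it was called.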
